A study of Arabidopsis thaliana with 9 samples.

Results

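The 32 genes described here encode many, but not all, of the nuclear subunits of the photosynthetic electron transport chain of Arabidopsis thaliana. Further subunits are on a separate list below. The 32 are 12 genes of photosystem I, 10 genes of photosystem II, 7 genes of electron carriers and ferredoxin reductases, the ATP synthase genes ATPC1 and ATPD, and PGR5. They were chosen by locus identifier, as nuclear PSA and PSB subunits, PETC, plastocyanins, ferredoxins, ferredoxin reductases and the genes just named, out of 37898 genes in the deposited table. All 32 passed the filter on low values, an FPKM (fragments per kilobase of transcript, scaled to the mapped fragments of the library) of at least 1 in 3 or more of the 9 libraries, which 18212 genes passed in all. Polyadenylated RNA of seedlings was sequenced in 3 groups of n = 3 libraries: nrpe1-11, a mutant line of NRPE1, nrpd1-3, a mutant line of NRPD1, and wild-type Col-0. NRPE1 and NRPD1 encode the largest subunits of RNA polymerases V and IV. All groups share the Col-0 ecotype, an age of 2 weeks, the treatment named Mock and a day of 16 h of light (22 °C) and 8 h of dark (18 °C). Neither the hour of collection nor the plants or pools behind each of the 3 libraries are given in the labels, and p-values therefore measure only the spread between these libraries. Each mutant is 1 line, and the tissue is given as seedlings, with leaf and root markers both present in the RNA.

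In the thylakoid membrane, photosystem II takes electrons from water, the cytochrome b6f complex passes them on to plastocyanin, and photosystem I lifts them to ferredoxin, from which ferredoxin-NADP+ reductase makes NADPH. The proton gradient built on the way drives the chloroplast ATP synthase, and PGR5 takes part in the cyclic route that returns electrons from photosystem I. The cores of these complexes are encoded in the plastid and were not analysed here, whereas the subunits below are made in the cytosol from nuclear genes, several of which exist in 2 copies. RNA polymerases IV and V are plant enzymes of RNA-directed DNA methylation.

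The library sums of FPKM were 440647 to 466927, with 16802 to 17604 genes per library at an FPKM of 1 or more. The number of reads behind them was not used. Ribosomal RNA took 14.2 to 21.4% of the FPKM and protein-coding genes 67.0 to 80.9%. Col-0 replicate 2 held the highest ribosomal and the lowest protein-coding share, and nrpd1-3 replicate 2 came next in both (19.7% and 71.3%). NRPE1 had 0.624, 0.254 and 0.339 FPKM in nrpe1-11 and 0.831, 0.843 and 0.863 FPKM in Col-0, with no overlap, though limma did not call it (-0.40, adjusted p = 0.196). NRPD1 had 0.674, 0.67 and 0.948 FPKM in the libraries labelled nrpd1-3 and 0.565, 0.489 and 1.05 FPKM in Col-0, and these overlap (0.06, adjusted p = 0.948). Its RNA was thus not lower in the libraries that carry the name of its mutant, which does not by itself test the label. In nrpe1-11, NRPD1 had 1.56, 1.98 and 2.3 FPKM. Limma called this higher than in Col-0 (0.80, adjusted p = 0.019) and than in nrpd1-3 (0.74, adjusted p = 0.0361). NRPE1 had 1.4, 1.28 and 1.19 FPKM in nrpd1-3, above every Col-0 library but not called (0.31, adjusted p = 0.708). Its RNA was called lower in nrpe1-11 than in nrpd1-3 (-0.71, adjusted p = 0.0365). NRPE1 reached 1 FPKM only in the nrpd1-3 libraries, and NRPD1 only in the nrpe1-11 libraries and 1 Col-0 library. Each gene was thus tested only because its higher group passed the filter on low values, which limits what these calls can show. Every change given is a difference of mean log2(FPKM + 1), which understates the change of low genes, tested with limma and adjusted over the 18212 tested genes. Called means an adjusted p under 0.05. Over all tested genes the median of these differences was 0.17 for nrpe1-11 minus Col-0, 0.11 for nrpd1-3 minus Col-0 and 0.06 for nrpe1-11 minus nrpd1-3.

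RNA of nearly all of these genes was lower in nrpe1-11 seedlings than in Col-0 seedlings. Of the 32 genes, 30 fell, 0 rose and 2 were not called, where 7.54% of all tested genes were called lower and 14.2% were called higher. PETC, the Rieske iron-sulfur protein of cytochrome b6f, and PSAE2, 1 of 2 copies of a stromal photosystem I subunit, were the 2 not called. The median change of the 32 genes was -0.62, a difference of -0.80 from the median of all tested genes. In 31 genes, all but PSAE2, each of the nrpe1-11 libraries lay below all Col-0 libraries, a pattern that 10.7% of all tested genes showed. PSBR, the most abundant member in each group, is among the 30, but its value was 0.02 after quantile normalization, and its call was lost without nrpe1-11 replicate 1 (-0.34, adjusted p = 0.0695), without Col-0 replicate 2 (-0.37, adjusted p = 0.0634) and without the filter on low values (-0.46, adjusted p = 0.123). PSAH1 was no longer called without nrpe1-11 replicate 1 (-0.26, adjusted p = 0.0647), and the other 28 genes were called lower under every alternative tried.

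The members fell by unequal amounts. PSBS, PSAO, PSBO2, PSAH2 and PSAD2 were at least 2-fold lower in nrpe1-11, and 2.93% of all tested genes were called and at least 2-fold lower. At the other end, PSBQ2 (-0.33), PSAH1 (-0.36) and FNR1 (-0.39) had the smallest of the called changes. Across the 32 genes the level in Col-0 and the change were unrelated in rank (Spearman's rho -0.01), and the order of the levels in nrpe1-11 and Col-0 was nearly the same (rho 0.96). Both are descriptions over genes that share their libraries. Within the nrpe1-11 group, replicate 1 was the lowest library for 25 of the 32 genes and replicate 3 the highest for 22. Without replicate 1 the median change was -0.55 and 28 of the 32 genes were called lower.

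In libraries from seedlings, fewer photosynthetic cells and less of these RNAs per cell cannot be told apart. The 4 leaf mesophyll markers RBCS1A, CA1, RCA and GAPA, all above 0 in each library, summed to 3491 to 3868 FPKM in nrpe1-11, 5102 to 5256 FPKM in nrpd1-3 and 5006 to 5514 FPKM in Col-0. RCA (-1.36), CA1 (-0.92) and RBCS1A (-0.36) fell in nrpe1-11, and GAPA, an enzyme of the Calvin-Benson cycle, had 503 ± 17.8 FPKM in nrpe1-11 and 481 ± 6.55 FPKM in Col-0 (0.06, adjusted p = 0.554). The 7 root markers summed to 568.8 to 593 FPKM in nrpe1-11, 431 to 525 FPKM in nrpd1-3 and 361 to 473 FPKM in Col-0. Most of each sum was PYK10, with 516 to 537 FPKM in nrpe1-11, 390 to 479.5 FPKM in nrpd1-3 and 323 to 437 FPKM in Col-0. Over all tested genes, 14.2% were called higher and 7.54% lower in nrpe1-11 against Col-0. Of the 6 root markers that were tested, 3 were called higher, among them PHO1 (0.69) and PYK10 (0.42), and 1, IRT1 (-0.79), lower. Called higher was 1 root marker after median-ratio rescaling, without the filter on low values or without nrpe1-11 replicate 3. Over all genes tested in these settings, 1184, 1843 and 1585 were called higher, against 2581 in the main fit. Called lower were 0 root markers without nrpe1-11 replicate 1, nrpe1-11 replicate 2, Col-0 replicate 2 or Col-0 replicate 3. The same held with no filter. Over all genes tested in these settings, 1099 to 1438 were called lower, against 1374 in the main fit. A filter of a mean FPKM of at least 5 cannot test this call, because it leaves out IRT1. The means of IRT1 were 2.87 FPKM in nrpe1-11, 5.08 FPKM in nrpd1-3 and 5.55 FPKM in Col-0. Seed and flower markers stayed at or below 0.293 and 2.04 FPKM in sum. The part of the leaf and root markers in the fall of the 32 genes was not tested.

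**Figure D1:**
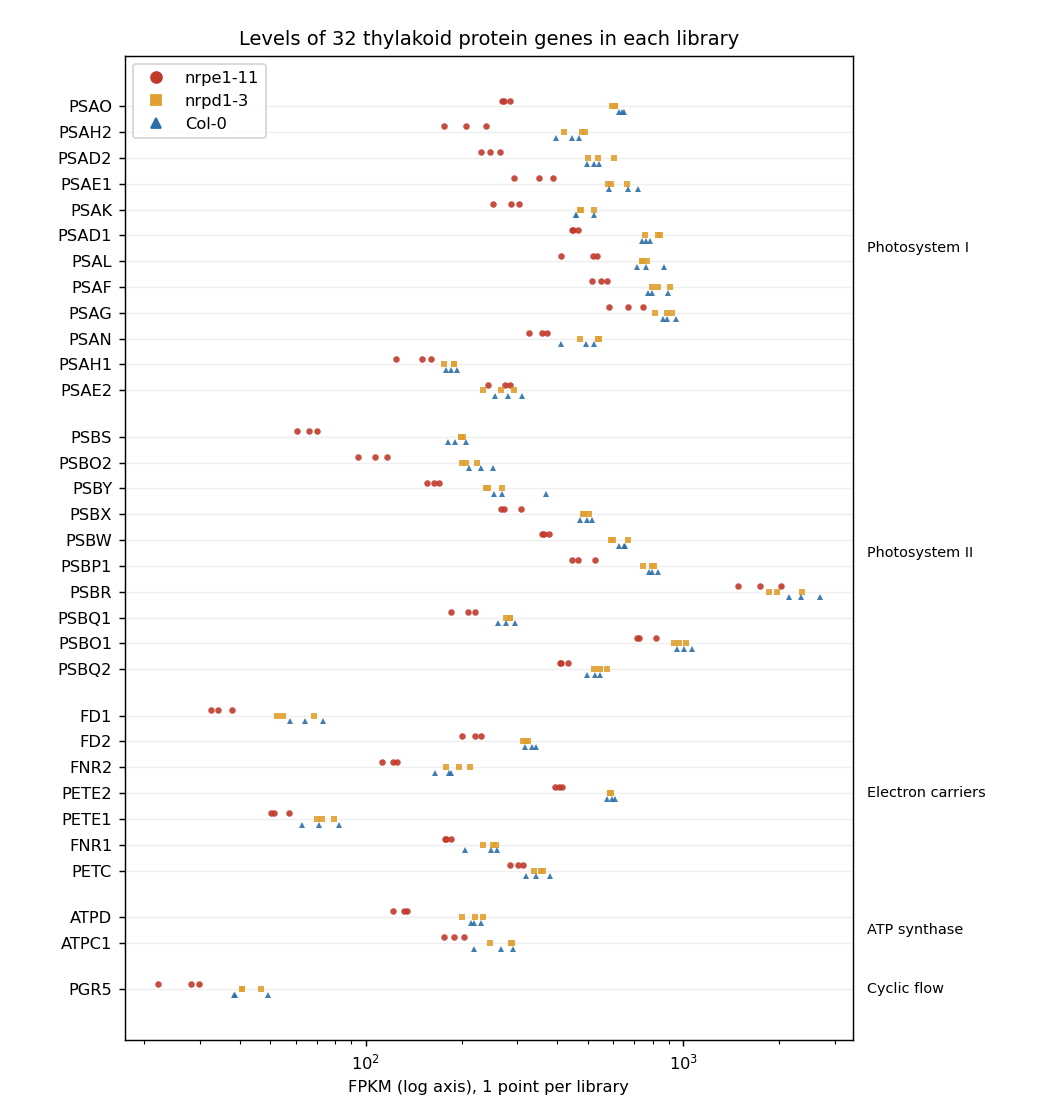
FPKM (log axis) of each of the 32 genes in each library, with 1 point per library, grouped by complex, for nrpe1-11, nrpd1-3 and Col-0. The nrpe1-11 points lie left of the Col-0 points in 31 genes, and those of PSAE2 overlap with both other groups.

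**Figure D2:**
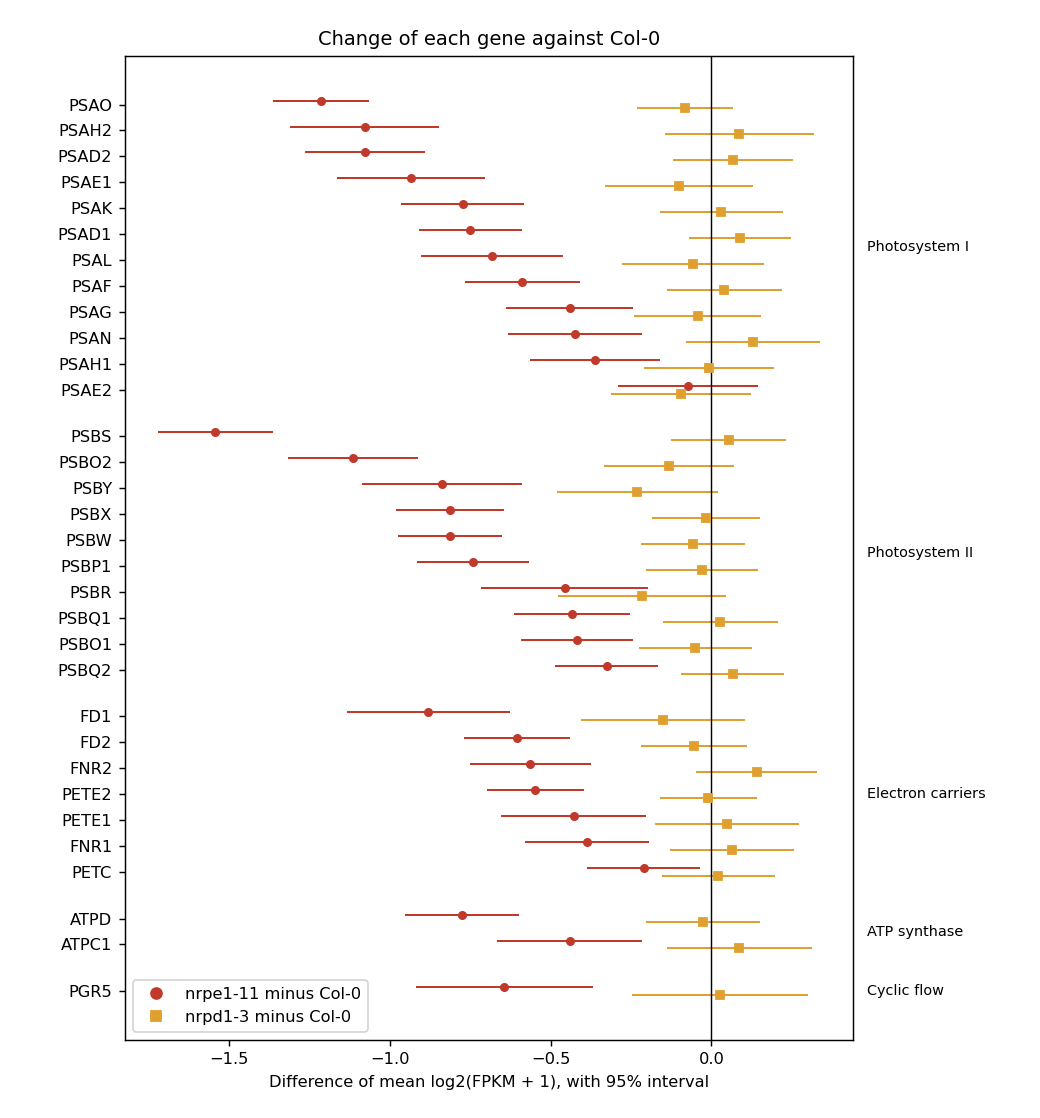
Difference of mean log2(FPKM + 1) from Col-0 for each of the 32 genes, with its 95% interval, for nrpe1-11 and nrpd1-3. The nrpe1-11 values run from -1.54 (PSBS) to -0.07 (PSAE2), and the nrpd1-3 values lie between -0.23 (PSBY) and 0.14 (FNR2).

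The 130 bases before the annotated transcript start are shown for the 2 genes with the largest falls, PSBS and PSAO, and for PSAE2, the gene with the smallest change, from the RefSeq genome TAIR10.1, read 5′ to 3′ on the strand of the gene and without overlap with another annotated gene. They lie at chr1:16870091-16870220 (+) for PSBS, chr1:2641935-2642064 (-) for PSAO and chr2:8736604-8736733 (+) for PSAE2. Capitals mark a match to CACGTG, the G-box, the core bound by bZIP and bHLH factors of light responses.
PSBS: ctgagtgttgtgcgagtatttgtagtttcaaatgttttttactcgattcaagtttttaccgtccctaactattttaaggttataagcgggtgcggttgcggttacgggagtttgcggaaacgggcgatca
PSAO: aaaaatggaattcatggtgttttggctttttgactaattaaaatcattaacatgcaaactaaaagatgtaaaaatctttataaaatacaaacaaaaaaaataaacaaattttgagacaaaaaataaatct
PSAE2: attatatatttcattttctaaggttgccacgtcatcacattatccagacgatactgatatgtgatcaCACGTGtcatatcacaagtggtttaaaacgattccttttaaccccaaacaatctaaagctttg
Of these 3 stretches, that of PSAE2 holds a G-box, 63 to 58 bases before the start, and those of PSBS and PSAO hold none of the motifs searched. In 250 bases before the start, on both strands, a G-box was found in 5 of the 32 genes (PSAE2, PSAH2, PSBQ1, PSBQ2 and ATPD) and in 6.49% of all 27438 gene starts. GATAAG, the I-box of light-regulated promoters, was found in 8 of the 32 genes and in 12.3% of all starts. CCAATC, bound by the chloroplast regulators of the GLK family, was found in 4 (PSBQ2, PETC, PETE2 and ATPD) and in 10.2% of all starts. AATATCT, the core of the evening element of clock-controlled genes, was found in 4 (PSAF, PSAO, PSBQ2 and ATPC1) and in 10% of all starts. A match is a description of letters. The median change was -0.43 with and -0.64 without a G-box, and -0.57 with and -0.66 without an I-box. It was -0.44 with and -0.66 without CCAATC, and -0.51 with and -0.66 without AATATCT. All 4 motifs thus went the same way, each with few genes that hold a match. These sets share genes: PSBQ2 is in all 4, and PSAF, PSAH2, PETC, PETE2 and ATPD are in 2 each. The 4 differences are therefore not separate results.

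Photosystem I subunits fell in 11 of 12 cases, with a median change of -0.72. PSAO (AT1G08380), a small membrane subunit that helps light-harvesting complexes dock during state transitions, had 284, 269 and 273 FPKM in the nrpe1-11 libraries, 607, 608 and 598 FPKM in the libraries labelled nrpd1-3 and 628, 642 and 649 FPKM in the Col-0 libraries. The nrpe1-11 values are all under those of the other groups (log2 change -1.21, SE 0.0699, adjusted p = 9.29e-09), and their spread is small. PSAK (AT1G30380, -0.77, adjusted p = 1.99e-05) and PSAL (AT4G12800, -0.68, adjusted p = 2.51e-04), membrane subunits on the antenna-facing sides of the complex, and PSAF (AT1G31330, -0.59, adjusted p = 1.49e-04), which binds plastocyanin, fell as well. PSAG (AT1G55670), a membrane subunit at the edge that carries the antenna, had 665 ± 80.2 FPKM in nrpe1-11 and 899.8 ± 43.3 FPKM in Col-0, a change of -0.44 (adjusted p = 0.00354). PSAN (AT5G64040), the subunit on the lumenal face, had 352 ± 23.5 FPKM in nrpe1-11 and 475 ± 56.9 FPKM in Col-0, a change of -0.42 (adjusted p = 0.00617), the smallest among these single-copy subunits of photosystem I.

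PSAD, PSAE and PSAH are photosystem I subunits with 2 genes each: PSAD and PSAE form the stromal side where ferredoxin docks, and PSAH is a membrane subunit also needed for state transitions. PSAD1 (AT4G02770) had 445, 447 and 467 FPKM in the nrpe1-11 libraries, 833, 758 and 843 FPKM in the libraries labelled nrpd1-3 and 763, 742 and 783 FPKM in the Col-0 libraries. For PSAD2 (AT1G03130) the values were 230.1, 264 and 245 FPKM in nrpe1-11, 537, 499.8 and 604 FPKM in nrpd1-3 and 542, 524 and 496 FPKM in Col-0. Neither gene's nrpe1-11 libraries overlap with those of Col-0, and both PSAD2 (-1.08, adjusted p = 4.94e-07) and PSAD1 (-0.75, adjusted p = 4.01e-06) fell. PSAH1 (AT3G16140) had 124, 150.3 and 161 FPKM in the nrpe1-11 libraries, 189, 189.7 and 176 FPKM in the libraries labelled nrpd1-3 and 179, 186 and 193 FPKM in the Col-0 libraries. PSAH2 (AT1G52230) gave 176, 239.5 and 206 FPKM in nrpe1-11, 479, 420.2 and 488 FPKM in nrpd1-3 and 444, 396 and 468 FPKM in Col-0. PSAH2 (-1.08, adjusted p = 4.63e-06) lay among the 5 largest falls, whereas PSAH1 was among the 3 smallest (-0.36, adjusted p = 0.0133). PSAE1 (AT4G28750) had 293, 349.5 and 389.5 FPKM in the nrpe1-11 libraries, 589, 666 and 577 FPKM in the libraries labelled nrpd1-3 and 583, 717 and 668 FPKM in the Col-0 libraries. PSAE2 (AT2G20260), its other copy, had 243, 274 and 285 FPKM in nrpe1-11, 266, 292 and 233 FPKM in nrpd1-3 and 254, 311 and 279.6 FPKM in Col-0. PSAE1 fell (log2 change -0.93, SE 0.108, adjusted p = 1.99e-05) in nrpe1-11 with no overlap, while the 3 groups of PSAE2 overlap (log2 change -0.07, SE 0.102, adjusted p = 0.637, 95% interval -0.29 to 0.14). The value of PSAE2 was 0.0006 without Col-0 replicate 2, so its sign carries no direction.

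All 10 photosystem II genes among the members fell, with a median change of -0.78, though PSBR was at 0.02 after quantile normalization. PSBS (AT1G44575), the lumen pH sensor of energy-dependent quenching, which sheds excess light as heat, changed most of the 32 genes. PSBS had 66.2, 60.6 and 70.1 FPKM in the nrpe1-11 libraries, 199.9, 199 and 201 FPKM in the libraries labelled nrpd1-3 and 191, 182 and 206 FPKM in the Col-0 libraries. Its nrpe1-11 level was 34.0% of the Col-0 level (log2 change -1.54, SE 0.0837, adjusted p = 4.96e-09), whereas nrpd1-3 and Col-0 overlap. PSBW (AT2G30570, -0.81, adjusted p = 2.02e-06), PSBX (AT2G06520, -0.81, adjusted p = 3.27e-06) and PSBY (AT1G67740, -0.84, adjusted p = 1.20e-04), small membrane subunits of photosystem II, fell by nearly the same amount on the log2 scale. PSBY varied most among the Col-0 libraries, with 268, 369 and 253.5 FPKM, and all nrpe1-11 values, 155.7 to 170.1 FPKM, lay below them.

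The extrinsic proteins on the lumenal side of photosystem II and PSBR, which stabilises their binding, keep the water-splitting manganese cluster working. Their 6 genes fell, with a median change of -0.45 and the same exception of PSBR under quantile normalization, and PSBO2 had the largest change among them. PSBO2 (AT3G50820), 1 of 2 genes of the manganese-stabilising protein, had 94.7, 107 and 116 FPKM in the nrpe1-11 libraries, 201, 223 and 207 FPKM in the libraries labelled nrpd1-3 and 211, 251 and 231 FPKM in the Col-0 libraries. Its nrpe1-11 libraries had less than any other library (log2 change -1.12, SE 0.0948, adjusted p = 7.94e-07). PSBO1 (AT5G66570), the main copy, had 715, 726 and 821 FPKM in nrpe1-11, 931, 1019 and 967 FPKM in nrpd1-3 and 955, 1064 and 1002 FPKM in Col-0 and fell too (-0.42, adjusted p = 0.00208). PSBP1 (AT1G06680) encodes the extrinsic protein that retains calcium and chloride, and had 479.6 ± 43.5 FPKM in nrpe1-11 and 801 ± 25.6 FPKM in Col-0 (-0.74, adjusted p = 1.14e-05). PSBQ1 (AT4G21280) had 186, 209 and 220.3 FPKM in nrpe1-11, 275, 285 and 285 FPKM in nrpd1-3 and 260.1, 277 and 294 FPKM in Col-0. PSBQ2 (AT4G05180) had 407, 411 and 432 FPKM in nrpe1-11, 574, 523 and 546 FPKM in nrpd1-3 and 528, 497 and 545 FPKM in Col-0. Both PSBQ genes, whose protein helps at low calcium and chloride, fell by small amounts with no overlap (-0.43 and -0.33, adjusted p = 0.00193 and 0.00651). PSBR (AT1G79040) had 1751 ± 275 FPKM in nrpe1-11, 2063 ± 264 FPKM in nrpd1-3 and 2394 ± 271 FPKM in Col-0 (nrpe1-11 against Col-0 -0.46, adjusted p = 0.0154), and its nrpd1-3 libraries overlap with both other groups.

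Electron carriers fell in 6 of 7 cases, with a median change of -0.55. Plastocyanin, the copper protein between cytochrome b6f and photosystem I, comes from PETE1 and PETE2. PETE2 (AT1G20340), the main copy, had 406, 394 and 415 FPKM in the nrpe1-11 libraries, 592, 585 and 589 FPKM in the libraries labelled nrpd1-3 and 574, 595 and 609 FPKM in the Col-0 libraries. PETE1 (AT1G76100) had 51.4, 50.3 and 57.2 FPKM in nrpe1-11, 70.0, 79.5 and 72.9 FPKM in nrpd1-3 and 62.7, 71.2 and 82 FPKM in Col-0. Both fell, PETE2 by 0.55 (adjusted p = 5.41e-05) and PETE1 by 0.43 (adjusted p = 0.00955) on the log2 scale, with nrpe1-11 under Col-0 in each library. The leaf ferredoxin gene FD2 (AT1G60950) had 201, 220.5 and 231 FPKM in nrpe1-11, 320.2, 324 and 312 FPKM in nrpd1-3 and 317, 342 and 333 FPKM in Col-0. FD1 (AT1G10960), the minor leaf ferredoxin gene, had 34.1, 32.4 and 37.8 FPKM in nrpe1-11, 54.7, 68.8 and 52.4 FPKM in nrpd1-3 and 57.8, 73.2 and 64.1 FPKM in Col-0. FD1 changed by -0.88 (adjusted p = 8.89e-05), the largest change among the carriers, and FD2 by -0.60 (adjusted p = 5.40e-05). FNR1 and FNR2 encode the leaf ferredoxin-NADP+ reductases. FNR1 (AT5G66190) had 179, 185 and 177 FPKM in nrpe1-11, 256, 234 and 251 FPKM in nrpd1-3 and 259, 205 and 248 FPKM in Col-0. FNR2 (AT1G20020) had 112, 122 and 125 FPKM in nrpe1-11, 196, 179 and 213 FPKM in nrpd1-3 and 183, 165 and 185 FPKM in Col-0. FNR1 (-0.39, adjusted p = 0.00733) and FNR2 (-0.56, adjusted p = 3.58e-04) fell, again with every nrpe1-11 library lowest. PETC (AT4G03280) had 285, 300.5 and 312 FPKM in nrpe1-11, 357, 338 and 360.1 FPKM in nrpd1-3 and 344, 318 and 379 FPKM in Col-0. Its nrpe1-11 libraries lay below all others, but the change was not called (log2 change -0.21, SE 0.0823, adjusted p = 0.0796, 95% interval -0.39 to -0.04). It was called lower after median-ratio rescaling (-0.40), after scaling to the protein-coding sum (-0.26), after quantile normalization (-0.18) and without Col-0 replicate 2 (-0.27).

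The ATP synthase genes ATPC1 and ATPD encode the gamma and delta subunits of the chloroplast enzyme, the rotor shaft and the link of the head to the stator. ATPC1 (AT4G04640) had 189.6 ± 13.8 FPKM in nrpe1-11 and 259 ± 36.2 FPKM in Col-0 (-0.44, adjusted p = 0.0082), and ATPD (AT4G09650) had 129 ± 6.78 FPKM in nrpe1-11 and 222 ± 8.33 FPKM in Col-0 (-0.78, adjusted p = 8.49e-06). PGR5 (AT2G05620), the least abundant member in every group, had 22.1, 29.7 and 28.1 FPKM in the nrpe1-11 libraries, 40.6, 40.7 and 46.8 FPKM in the libraries labelled nrpd1-3 and 49.2, 38.7 and 38.5 FPKM in the Col-0 libraries. It fell in nrpe1-11 (log2 change -0.64, SE 0.128, adjusted p = 0.00242), with its highest nrpe1-11 library at 29.7 FPKM and its lowest Col-0 library at 38.5 FPKM.

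Summed over the 32 genes, nrpe1-11 libraries held 10516 ± 811 FPKM, nrpd1-3 libraries 15750.1 ± 180.4 FPKM and Col-0 libraries 16149.8 ± 492 FPKM (SD, n = 3 each). As a share of all protein-coding FPKM the members made up 3.06 ± 0.204% in nrpe1-11, 4.52 ± 0.23% in nrpd1-3 and 4.88 ± 0.343% in Col-0. The nrpe1-11 sum was 65.1% of the Col-0 sum, and 56.9% after median-ratio rescaling. Photosystem I genes summed to 4271 ± 343 FPKM in nrpe1-11 and 6941 ± 205 FPKM in Col-0 (61.5%), and photosystem II genes to 4591 ± 426 FPKM in nrpe1-11 and 6863 ± 371 FPKM in Col-0 (66.9%). The carriers summed to 1309.6 ± 42.8 FPKM in nrpe1-11 and 1823 ± 68.5 FPKM in Col-0 (71.9%), and the ATP synthase genes to 319 ± 14 FPKM in nrpe1-11 and 481 ± 40.4 FPKM in Col-0 (66.3%). In each of these sums the nrpe1-11 and Col-0 libraries do not overlap (exact permutation test, two-sided, p = 0.1, the smallest that 3 against 3 libraries allow). The sums hold members only, not whole complexes. ATPG, an ATP synthase gene outside the 32, had 226 ± 10.15 FPKM in nrpe1-11 and 258 ± 10.3 FPKM in Col-0 (-0.19, limma adjusted p = 0.0848). PETM of cytochrome b6f, also outside, had 352 ± 18.7 FPKM in nrpe1-11 and 296 ± 35.2 FPKM in Col-0 (0.26, limma adjusted p = 0.0756). Neither was called.

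**Figure D3:**
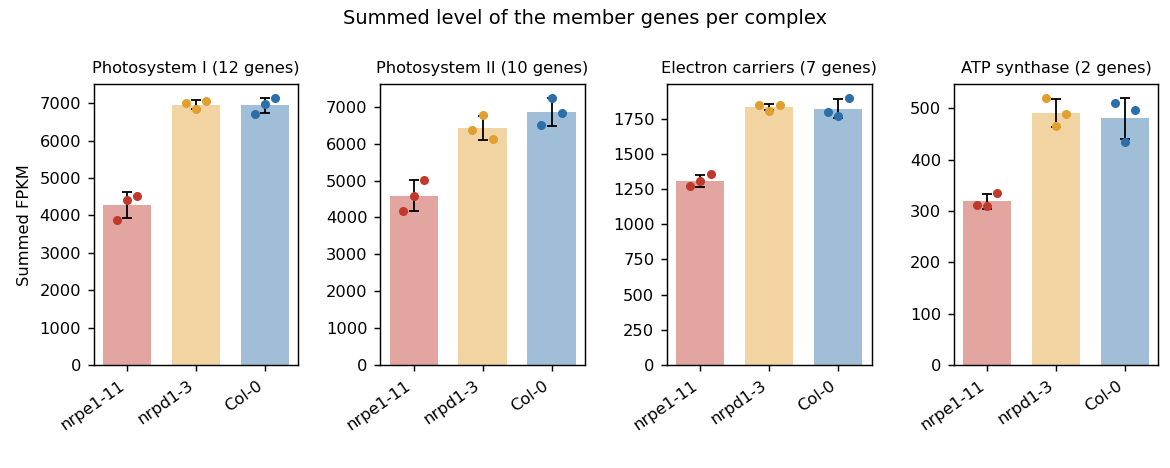
Summed FPKM of the genes of each complex per library, with 1 point per library and the mean, for nrpe1-11, nrpd1-3 and Col-0, with axes that start at 0. The sums of nrpe1-11 were 61.5% (photosystem I) to 71.9% (carriers) of those of Col-0, and those of nrpd1-3 lay near Col-0.

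Among the 8 pairs of copies, the share of the first copy in the summed FPKM of both lay apart between nrpe1-11 and Col-0 in 6 pairs. The share was not computed for other gene pairs, so whether 6 of 8 is unusual cannot be said. PSAE1 made up 54.7, 56 and 57.7% in nrpe1-11, 68.8, 69.5 and 71.2% in nrpd1-3 and 69.6, 69.8 and 70.5% in Col-0 of the PSAE RNA. The nrpe1-11 libraries are the low ones, with a difference of -13.8 percentage points from Col-0. For the PSAH pair, PSAH1 made up 41.4, 38.6 and 43.8% in nrpe1-11, 28.2, 31.1 and 26.5% in nrpd1-3 and 28.7, 32 and 29.2% in Col-0. Here nrpe1-11 was higher, by 11.3 percentage points. PSBO1 made up 87.7 ± 0.576% in nrpe1-11, 82.2 ± 0.184% in nrpd1-3 and 81.4 ± 0.497% in Col-0, a difference of 6.3 points, and PSAD1 made up 64.8 ± 1.67% in nrpe1-11, 59.8 ± 1.34% in nrpd1-3 and 59.4 ± 1.57% in Col-0, a difference of 5.35 points. FNR1 made up 60.1 ± 1.41% in nrpe1-11, 55.8 ± 1.48% in nrpd1-3 and 57.1 ± 1.58% in Col-0, a difference of 3.00 points. FD1 made up 13.8 ± 0.865% in nrpe1-11, 15.5 ± 1.76% in nrpd1-3 and 16.4 ± 1.14% in Col-0, a difference of -2.6 points. In PSAD, PSAH, PSBO and FNR the second copy had the larger fall on the log2 scale, and in PSAE and FD the first copy had it. For all 6 pairs the exact permutation test (two-sided) gave p = 0.1, the smallest that 3 against 3 libraries allow. PSBQ1 made up 32.9 ± 1.41% in nrpe1-11, 34 ± 1.44% in nrpd1-3 and 34.6 ± 1.43% in Col-0 (exact p = 0.3), and PETE1 11.6 ± 0.482% in nrpe1-11, 11.2 ± 0.707% in nrpd1-3 and 10.8 ± 1.01% in Col-0 (exact p = 0.3), with groups that overlap. The share of a copy does not depend on the scaling of a library. The transcripts of a pair share no run of 50 bases, and their longest common runs are 17 (PETE and FNR) to 35 bases (PSAD). A read of 50 bases that matches these transcripts exactly thus fits 1 copy of a pair. Read length is not given in the labels and matches with mismatches were not searched. The division of reads between copies was therefore not tested.

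**Figure D4:**
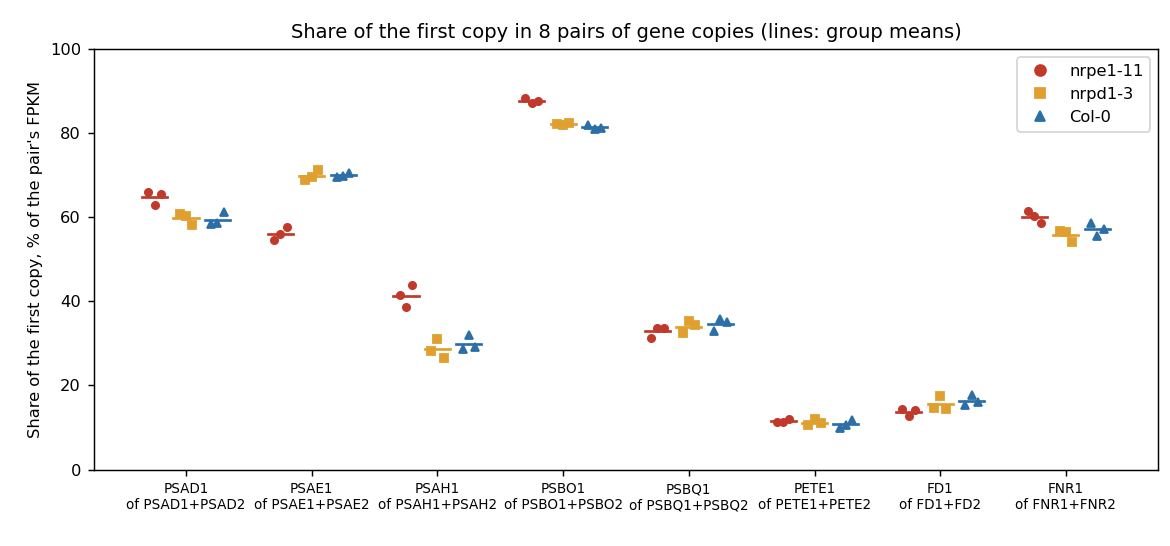
Percent of the summed FPKM of 2 gene copies that came from the first copy, for 8 pairs, with 1 point per library, in nrpe1-11, nrpd1-3 and Col-0. nrpe1-11 lies above Col-0 for PSAD1, PSAH1, PSBO1 and FNR1, below it for PSAE1 and FD1, and overlaps with it for PSBQ1 and PETE1.

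The members lie on chromosomes 1 (15 genes), 2 (4), 3 (2), 4 (8) and 5 (3), and their transcripts hold 607 to 1834 exon bases. The 11 genes with 1 exon had a median change of -0.75 and the others -0.59, and the change followed neither exon bases (rho 0.18) nor exon number (rho 0.23) closely. No source used here states strandedness, and reads of overlapping loci cannot be told apart. Of the 32 genes, 11 overlap another annotated locus, by 2 to 788 bases, and these are uncertain to that extent. Of the 21 without overlap, 20 were called lower in nrpe1-11, where 7.54% of all tested genes were called lower. AT4G28755 under PSAE1, AT1G55673 under PSAG and AT3G16130 under PSAH1 cover 436, 479 and 788 bases of their partner on the opposite strand, and each is listed at 0 in every group. AT5G66180, which overlaps FNR1 by 191 bases on the opposite strand, had 11.4 ± 0.966 FPKM in nrpe1-11 and 7.58 ± 1.95 FPKM in Col-0. AT1G10950, which overlaps FD1 by 78 bases on the same strand, had 44.4 ± 0.376 FPKM in nrpe1-11 and 36.3 ± 3.63 FPKM in Col-0. FD1 itself had means of 34.8 FPKM in nrpe1-11 and 65.0 FPKM in Col-0. The part of this overlap in the FD1 values was not tested.

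In the libraries labelled nrpd1-3, none of the 32 genes was called against Col-0 (limma, 0% of all tested genes called, 0 members and 1284 of all tested genes at an unadjusted p under 0.05). The median change was -0.01, with 17 genes below and 15 above 0, and the values ran from -0.23 for PSBY (95% interval -0.48 to 0.02) to 0.14 for FNR2 (95% interval -0.05 to 0.33). PSBS had a value of 0.05 (95% interval -0.12 to 0.23) and PSBO2 of -0.13 (95% interval -0.33 to 0.07). PSAO was the 1 gene with every nrpd1-3 library below every Col-0 library, by 0.08 on the log2 scale (adjusted p = 0.753), a pattern found in 1.56% of all tested genes. The opposite pattern, with every nrpd1-3 library above, was found in 0 of the 32 genes and in 10.1% of all tested genes. PSBO1 had a share of 82.2 ± 0.184% of the PSBO RNA in nrpd1-3 and 81.4 ± 0.497% in Col-0, the 1 pair of 8 without overlap (exact permutation test, two-sided, p = 0.1). For this count, too, other gene pairs were not computed. The comparisons of nrpd1-3 and of nrpe1-11 with Col-0 share the 3 Col-0 libraries.

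Set directly against the libraries labelled nrpd1-3, nrpe1-11 was lower in 29 of the 32 genes and higher in 0, where 8.52% of all tested genes were called lower and 6.19% were called higher. The median change was -0.63, and in 30 genes every nrpe1-11 library lay below every nrpd1-3 library, as in 14.5% of all tested genes. PSBS fell by 1.6 on the log2 scale (SE 0.0837, adjusted p = 3.04e-09), followed by PSAH2 (-1.16), PSAD2 (-1.14) and PSAO (-1.13). Not called were PETC (-0.23, adjusted p = 0.0734), PSBR (-0.24, adjusted p = 0.22, and 0.07 after quantile normalization) and PSAE2 (0.02, adjusted p = 0.925, and -0.04 after median-ratio rescaling). PETC was called lower after each of the 3 rescalings. The difference between nrpe1-11 and nrpd1-3 is the test of whether the mutants differ in these genes. NRPD1 RNA was not lower in the libraries labelled nrpd1-3 than in Col-0, and values this low cannot decide whether the label holds.

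For other nuclear genes of the same pathway, counts in nrpe1-11 against Col-0 are set beside all tested genes, of which 14.2% were called higher and 7.54% lower, with a median change of 0.17. Of 15 further subunits and paralogues, 3 were called higher (20.0%, near the share of all tested genes), 3 lower (20.0%) and 9 not, with a median change of -0.19. CURT1B, which bends grana margins, had 164 ± 4.35 FPKM in nrpe1-11 and 266 ± 13.1 FPKM in Col-0 (-0.70, adjusted p = 1.29e-05), and PSB28, an assembly-related protein of photosystem II, had 19.3 ± 2.51 FPKM in nrpe1-11 and 31.9 ± 3.11 FPKM in Col-0 (-0.70, adjusted p = 7.90e-04). RFNR2, a root-type ferredoxin reductase, rose to 25.6 ± 2.75 FPKM in nrpe1-11, against 17.3 ± 0.553 FPKM in Col-0 (0.53, adjusted p = 0.00313). CYTC6A, a lumenal cytochrome c6-like protein, had 14.2 ± 2.35 FPKM in nrpe1-11 and 9.05 ± 2.62 FPKM in Col-0 (0.62, adjusted p = 0.0296), with libraries that overlap. The CYTC6A call was lost without nrpe1-11 replicate 2 (0.57), nrpe1-11 replicate 3 (0.54) or Col-0 replicate 2 (0.41), and after median-ratio rescaling (0.45), after quantile normalization (0.49) and without the filter on low values (0.62, adjusted p = 0.108). After median-ratio rescaling 1 gene of this list was called higher and 8 were called lower, and without nrpe1-11 replicate 3 or Col-0 replicate 2, 1 was called higher. Over all tested genes the rescaling gave 1184 higher and 2168 lower, against 2581 and 1374 in the main fit. Without these libraries 1585 and 1646 of all tested genes were called higher.

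Among 19 genes of cyclic electron flow and of the nuclear NDH subunits, 4 were called lower (21.1%), 3 higher (15.8%) and 12 not (median -0.20), against 7.54% lower and 14.2% higher over all tested genes, so the share called higher is near that of all genes. PGRL1A, the thylakoid partner of PGR5, had 44.6 ± 4.23 FPKM in nrpe1-11, 102 ± 12.4 FPKM in nrpd1-3 and 97.2 ± 15.4 FPKM in Col-0, and fell in nrpe1-11 (log2 change -1.1, SE 0.124, adjusted p = 1.61e-05). PNSB1, a subunit of the NDH complex, had 18.6 ± 1.3 FPKM in nrpe1-11 and 42.5 ± 5.55 FPKM in Col-0 (-1.15, adjusted p = 5.38e-06). NDHO (0.53, adjusted p = 0.00798) and PNSL3 (0.57, adjusted p = 0.0175), subunits of the same complex, were called higher, the second not without nrpe1-11 replicate 2 (0.49), Col-0 replicate 2 (0.49) or Col-0 replicate 3 (0.49), nor after median-ratio rescaling (0.40). Without nrpe1-11 replicate 2 or Col-0 replicate 2, 1 gene of this list was called higher, and after median-ratio rescaling 10 were called lower and 1 higher. Over all tested genes, 1666 and 1646 were called higher without these libraries. The rescaling gave 2168 lower and 1184 higher, against 1374 and 2581 in the main fit. Of 19 assembly and repair factors, 5 were called lower (26.3%, against 7.54% of all tested genes), 0 higher (against 14.2%) and 14 not (median -0.19). LQY1, a repair factor of photosystem II, had 18 ± 2.96 FPKM in nrpe1-11 and 35.9 ± 0.681 FPKM in Col-0 (-0.97, adjusted p = 5.00e-05), and the lumenal protease gene DEG1 had 14.2 ± 0.737 FPKM in nrpe1-11 and 25 ± 1.34 FPKM in Col-0 (-0.77, adjusted p = 7.00e-05). Without nrpe1-11 replicate 2, Col-0 replicate 1 or Col-0 replicate 3, 3 of the assembly and repair factors were called lower, and after median-ratio rescaling 11 were. Over all tested genes, 1099 to 1151 were called lower without these libraries and 2168 after the rescaling, against 1374 in the main fit.

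Of 11 genes of thylakoid kinases, phosphatases, tethers and the thioredoxin link, 3 were called lower (27.3%, against 7.54% of all tested genes), 0 higher (against 14.2%) and 8 not (median -0.08). STN7, the kinase of state transitions, had 14.5 ± 0.0781 FPKM in nrpe1-11 and 26.2 ± 3.46 FPKM in Col-0 (-0.81, adjusted p = 1.86e-04), and KEA3, a thylakoid potassium-proton antiporter, had 3.44 ± 0.116 FPKM in nrpe1-11 and 8.01 ± 0.784 FPKM in Col-0 (-1.02, adjusted p = 0.00204). Of 11 regulators of photosynthesis genes, 4 were called lower (36.4%, against 7.54% of all tested genes), 2 higher (18.2%, near the 14.2% of all tested genes) and 5 not (median -0.16). GLK2, an activator of nuclear photosynthesis genes, had 10.2 ± 1.32 FPKM in nrpe1-11, 21.3 ± 2.73 FPKM in nrpd1-3 and 21.3 ± 0.878 FPKM in Col-0 (nrpe1-11 against Col-0 -1.0, adjusted p = 4.75e-05). SIG5, a sigma factor of the plastid RNA polymerase, had 2.19, 1.44 and 1.12 FPKM in nrpe1-11, 9.55, 6.16 and 9.02 FPKM in nrpd1-3 and 6.02, 5.98 and 7.3 FPKM in Col-0 (nrpe1-11 against Col-0 -1.54, adjusted p = 5.11e-05). The GATA factor genes CGA1 (0.59, adjusted p = 0.0064) and GNC (0.40, adjusted p = 0.0276) were called higher, but the GNC call was lost after median-ratio rescaling (0.23) and quantile normalization (0.28) and without any 1 of the nrpe1-11 libraries (0.37 to 0.43), Col-0 replicate 1 (0.38) or Col-0 replicate 2 (0.38). Without nrpe1-11 replicate 1, nrpe1-11 replicate 3 or Col-0 replicate 2, 1 regulator was called higher. Over all genes tested in these settings, 1585 to 1672 were called higher, against 2581 in the main fit. All 18 light-harvesting antenna genes were called lower (median -0.98), and the division of reads among the copies of the LHCB family was not tested. In nrpd1-3 against Col-0 none of the genes on these lists was called.

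**Figure D5:**
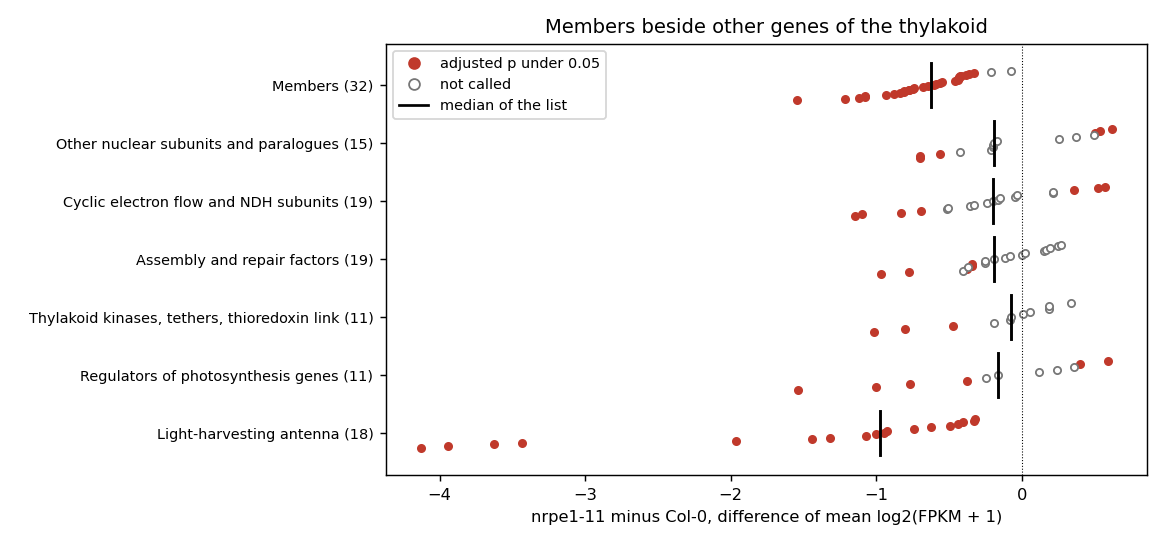
Difference of mean log2(FPKM + 1) between nrpe1-11 and Col-0 for the 32 genes in the top row and for the genes of 6 further lists, with the called genes filled and the genes not called open, and the median of each list marked. The medians were -0.62 for the 32 genes and -0.98 for the antenna, and lay between -0.20 and -0.08 for the other 5 lists.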

How the data were processed

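The authors deposited 1 table of FPKM per gene for 9 libraries. Per the submitters' processing notes, TAIR10 was the genome and the tools were StringTie 2.1.7, HISAT2 2.2.1 and fastp 0.23.2, in no stated order. Read depth was not used. Its 37929 lines cover 37898 genes, because AT1G58520 stands on 32 lines, of which the one with a value above 0 in the most libraries was kept. All identifiers matched TAIR10.1, and 0 columns belonged to other samples.

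Genes that reached 1 FPKM in 3 or more libraries were fitted as log2(FPKM + 1) in limma 3.58.1 (R 4.3.3), as 3 group means over the 9 libraries with an intensity trend, two-sided, adjusted by the Benjamini-Hochberg method over 18212 genes. Sums and shares were compared by exact permutation tests (python 3.11.15, scipy 1.17.1). The workflow was tested on simulated data. Members and lists were chosen with earlier results of these data known. All 32 members may be named; those given library by library were the 3 largest called changes in each direction in nrpe1-11 against Col-0, both copies of each pair and PGR5, and PETC was added after its values were seen. From each other list up to 2 called genes per direction with the smallest adjusted p were named, except the antenna. ATPG and PETM were added after their values were seen. Some symbols follow common usage where the annotation has another (PSBS is NPQ4, PETE2 is DRT112, SIG5 is SIGE). Alternatives changed the pseudocount, filter, scaling, replicate block, libraries in the fit and the variance model, and left out each library in turn. Their use on the other lists was added after seeing the data.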

Additional observations from a re-analysis of the deposited data

How the results depend on the processing

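Of 480 values of the 32 genes in nrpe1-11 against Col-0 under an alternative, 469 kept their sign and their side of the threshold, 4 were no longer called (PSBR in 3, PSAH1 in 1), 5 were newly called (PETC) and 2 changed sign. The sign changes were PSBR after quantile normalization (0.0189) and PSAE2 without Col-0 replicate 2, where the values with libraries left out ran from -0.144 to 0.0006. In nrpe1-11 against nrpd1-3, PSBR was 0.0667 after quantile normalization, and PSAE2 was -0.0405 after median-ratio rescaling and -0.0648 to 0.0978 with libraries left out. The cause was not tested. The number of members called lower ran from 28 to 31 in nrpe1-11 against Col-0, and 0 were called in nrpd1-3 against Col-0 under every alternative.

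Median-ratio rescaling moved the median of all genes from 0.17 to 0.02 and the calls over all genes from 2581 higher and 1374 lower to 1184 higher and 2168 lower. Quantile normalization gave 1625 higher and 1858 lower, and the protein-coding sum 2509 and 1618. The median of the members was -0.81 in nrpe1-11 against Col-0 after median-ratio rescaling. In nrpd1-3 against Col-0 it was -0.13 after median-ratio rescaling and -0.0841 with the protein-coding sum. In nrpe1-11 against nrpd1-3 it was -0.54 after quantile normalization, and -0.67 to -0.56 with libraries left out. After median-ratio rescaling the sums in nrpe1-11 were 56.9% (all), 53.8% (photosystem I), 58.4% (photosystem II), 63.0% (carriers) and 58.3% (ATP synthase) of Col-0. The carriers were at 69.4% with the protein-coding sum, and the ATP synthase genes at 63.3 to 68.4% with libraries left out, lowest without Col-0 replicate 2.

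For the other lists in nrpe1-11 against Col-0, median-ratio rescaling gave 1 higher and 8 lower further subunits, 1 higher and 10 lower genes of cyclic flow and NDH, 11 lower assembly factors, 1 higher regulator and 1 higher root marker. Quantile normalization gave 6 lower further subunits, 10 lower genes of cyclic flow and NDH, 10 lower assembly factors and 1 higher regulator, and the protein-coding sum 5 lower further subunits and 8 lower genes of cyclic flow and NDH. Without the filter 1 further subunit and 1 root marker were higher and 0 root markers lower. With a mean FPKM of at least 5, 0 root markers were lower, because that filter leaves out IRT1. With libraries left out, 1 to 3 further subunits, 1 to 3 genes of cyclic flow and NDH, 1 to 2 regulators and 1 to 3 root markers were higher. In these settings 3 to 6 assembly factors, 16 to 18 antenna genes and 0 to 1 root markers were lower.

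Libraries of equal replicate number had correlations of their deviations of -0.07 to 0.15, and those of unequal number of -0.12 to 0.07. In nrpd1-3 against Col-0 the equal numbers gave 0.06, 0.15 and 0.02. Whether replicate numbers pair the libraries was not settled. With the replicate number as a block, 31 of the 32 genes were called lower in nrpe1-11 against Col-0, 30 in nrpe1-11 against nrpd1-3 and 0 in nrpd1-3 against Col-0, and 1 assembly factor was higher. Over all tested genes the block gave 1439 lower and 2989 higher in nrpe1-11 against Col-0, and 1652 lower in nrpe1-11 against nrpd1-3. Read depth was not used, so no counting error was given.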
